A study of Mus musculus with 10 samples.

Results

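The genes of the integrated stress response were followed through knockdown of 4 subunits of the INO80 chromatin remodelling complex in mouse embryonic stem cells. The set was a list of 37 genes, each taken as all probes whose gene name or current symbol matched the list. All 37 had a probe on the array, 65 probes in all, and all 37 passed the filter on dim signals, out of 20662 genes tested. They comprised 6 transcription factors, 9 feedback genes and effectors, 9 enzymes of amino acid and one-carbon metabolism, and 13 genes of tRNA charging and export. The rule itself uses no measured value, although the list was chosen with earlier results of these data known. Mars1 appears on it under its older symbol Mars.

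In the integrated stress response, kinases that sense amino acid shortage, misfolded protein in the endoplasmic reticulum, double-stranded RNA or haem deficiency phosphorylate the translation factor eIF2 alpha. General translation falls, while the mRNA of Atf4 is translated more efficiently, so that ATF4 protein can rise without a rise of its mRNA. ATF4 with C/EBP partners then drives genes for amino acid synthesis and uptake, tRNA charging, redox balance and, through Ddit3 and Trib3, the later phase of the response. Stem cells divide rapidly and draw heavily on serine, glycine and one-carbon metabolism, which the same genes feed.

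Total RNA was taken from the mouse embryonic stem cell line J1, 96 hours after siRNA transfection in the medium named M15. The control group received non-targeting (NT) siRNA, and the knockdown groups received siRNA against Ino80, which encodes the ATPase of the complex, or against Ino80b, Ino80c or Ino80e, which encode accessory subunits. Each of the 5 groups had 2 arrays that the design text calls biological replicates, of a single cell line. By the barcodes, the NT arrays lay alone on a slide, Ino80 shared a slide with Ino80b, and Ino80c shared a slide with Ino80e. A difference from NT and a difference between slides therefore cannot be told apart, while Ino80 against Ino80b and Ino80c against Ino80e were compared within a slide. In bulk RNA, a change in the share of cells that express a gene and a change of its RNA in each cell cannot be told apart.

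The targeted mRNA was at 43.5% of NT in the Ino80 group, 25% in Ino80b, 19.8% in Ino80c and 43.3% in Ino80e. The limma adjusted p was 0.00423, 0.027, 0.00996 and 0.0831 in that order, so the fall of Ino80e did not pass the threshold of 0.05. An array had 66.5% to 79.0% of its probes well above background. Of the 10 embryonic stem cell markers, 9 were tested, and every group had all 9 well above background on its arrays. Their summed level was 8.71 to 9.52 on the log2 scale, the lowest on the Ino80 arrays. That sum is dominated by the brightest markers. The pluripotency factor Nanog had group means of 3.21 in NT, 1.86 in Ino80, 1.95 in Ino80b, 2.16 in Ino80c and 2.90 in Ino80e, and Esrrb had 4.89, 3.27, 3.40, 3.54 and 4.59 in that order. Of 14 fibroblast markers 12 were tested, with a summed level of 4.45 to 5.30, the highest on the Ino80 arrays and the lowest on those of Ino80e. All 11 primitive endoderm markers were tested, with a summed level of 4.26 to 4.88, the highest on the NT arrays. Of these, Gata6 had means of -0.22 in NT, -3.34 in Ino80, -2.16 in Ino80b, -0.83 in Ino80c and -0.02 in Ino80e, Sox17 had -1.28, -3.48, -2.85, -1.97 and -1.36, and Pdgfra had -3.11, -6.55, -4.89, -3.48 and -2.56. The lowest means of all 3 were thus those of Ino80, followed by Ino80b. Other markers of the lists did not follow. Foxa2 was highest in Ino80b, at -0.48 against -1.83 in NT. Sparc had 4.16 in Ino80 against 4.02 in NT, and Lamb1 had 2.25 against 2.24. Of the stem cell markers, Tdgf1 had 4.44 in Ino80 against 4.42 in NT. The markers named here were singled out after their values were seen, and the part of the markers in the results was not tested. Levels are log2 values relative to the 75th percentile of the same array, differences are in log2 units with the standard error of the limma fit, and every group has n = 2 arrays.

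Promoters of this set are shown because many of its members moved together between the arrays of a group, as described further on. Whether a motif match goes with that movement was not tested. The stretches printed are a selection of the matches. Asns, Nupr1, Pck2 and Vldlr among them were members with large shifts, while Chac1 and Herpud1 did not move with the others in every group. Windows of 300 bases around the annotated start, from the RefSeq table on GRCm38.p6, were matched to 30 of the 37 genes (32 windows). They were searched on both strands for the core of the C/EBP-ATF response element, TGATGNAAT, and for its first 8 letters, TGATGNAA, which every match of the longer motif also holds. The longer motif stood in 4 of 32 windows (12.5%), those of Aars, Gars, Iars and Nupr1, and in 0.965% of all 32851 windows. The shorter motif, added after the data were seen, stood in 13 of 32 windows (40.6%) against 3.97% of all windows. The list names genes of a response driven by ATF4 with C/EBP partners, so an excess can follow from the choice of the list. Each stretch below is read 5′ to 3′ on the strand of its gene, and the capitals mark the match, which in Asns runs along the gene strand and in the others along the opposite strand.
Asns, chr6:7693210-7693289, minus strand: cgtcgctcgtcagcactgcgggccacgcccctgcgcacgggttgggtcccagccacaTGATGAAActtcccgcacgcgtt
Nupr1, chr7:126625536-126625615, minus strand: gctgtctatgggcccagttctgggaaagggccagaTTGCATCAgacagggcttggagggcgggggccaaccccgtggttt
Pck2, chr14:55540128-55540207, plus strand: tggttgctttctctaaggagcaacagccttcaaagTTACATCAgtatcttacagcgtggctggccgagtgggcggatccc
Vldlr, chr19:27216785-27216864, plus strand: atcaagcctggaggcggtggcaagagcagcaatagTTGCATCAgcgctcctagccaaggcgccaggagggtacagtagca
Chac1, chr2:119351014-119351093, plus strand: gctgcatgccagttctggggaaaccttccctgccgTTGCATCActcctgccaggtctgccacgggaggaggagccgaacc
Herpud1, chr8:94386282-94386361, plus strand: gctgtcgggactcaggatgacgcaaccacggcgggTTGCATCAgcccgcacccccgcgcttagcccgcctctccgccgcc
The shared letters TTGCATCA recur in Nupr1, Vldlr, Chac1 and Herpud1, and Pck2 holds TTACATCA. All of these letters but the free one are set by the search. A match describes the letters only and is not evidence of a bound site.

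Few members passed the test against NT in the fit with group as the only term. In the Ino80 group Herpud1 rose and Ppp1r15a fell, which is 2 of 37 members where 12.4% of all genes were called, 7.65% as higher and 4.77% as lower. In the Ino80b group Ppp1r15a alone fell, 1 of 37 members where 6.48% of all genes were called, 3.90% as higher and 2.58% as lower. In the Ino80c group it was again Ppp1r15a alone, 1 of 37 members where 6.37% of all genes were called, 4.85% as higher and 1.52% as lower. In the Ino80e group no member was called in the limma fit, and 0.00484% of all genes (1 gene, higher) were. At an unadjusted p under 0.05 there were 13, 7, 7 and 9 of 37 members for Ino80, Ino80b, Ino80c and Ino80e. These are 35.1%, 18.9%, 18.9% and 24.3% of the members, against 31.2%, 29.4%, 30.7% and 28.5% of all genes, so the members' share was the smaller in all knockdowns except Ino80. These counts depend on the fit. With the replicate number also in it, more members were called in each knockdown, a larger share than that of all genes, as given in the last section. The median difference of the members was 0.25, -0.09, 0.15 and 0.31 in the same order, against 0.16, 0.13, 0.26 and 0.19 for all genes. With quantile normalization the median of all genes was 0.07 to 0.09, so the sign of small differences from NT depends on the scaling. These 4 comparisons share the NT arrays. Relative to all genes the value for Ino80 was 0.09, but -0.27 without NT replicate 1 and -0.25 without Ino80 replicate 2. Without NT replicate 2 it turned from -0.22 to 0.09 for Ino80b and from -0.11 to 0.18 for Ino80c, and for Ino80e it went from 0.12 to 0.42. A fit without an array of either group compares unlike replicate numbers. Most members were higher on replicate 2, as described further on. The score of an array was the median deviation of the members from their own means over all arrays, less that of all genes. On replicate 1 it was -0.25 in NT and -0.18, -0.36, -0.21 and -0.03 in Ino80, Ino80b, Ino80c and Ino80e. On replicate 2 it was 0.25 in NT and 0.33, -0.01, 0.09 and 0.27 in that order.

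**Figure D1:**
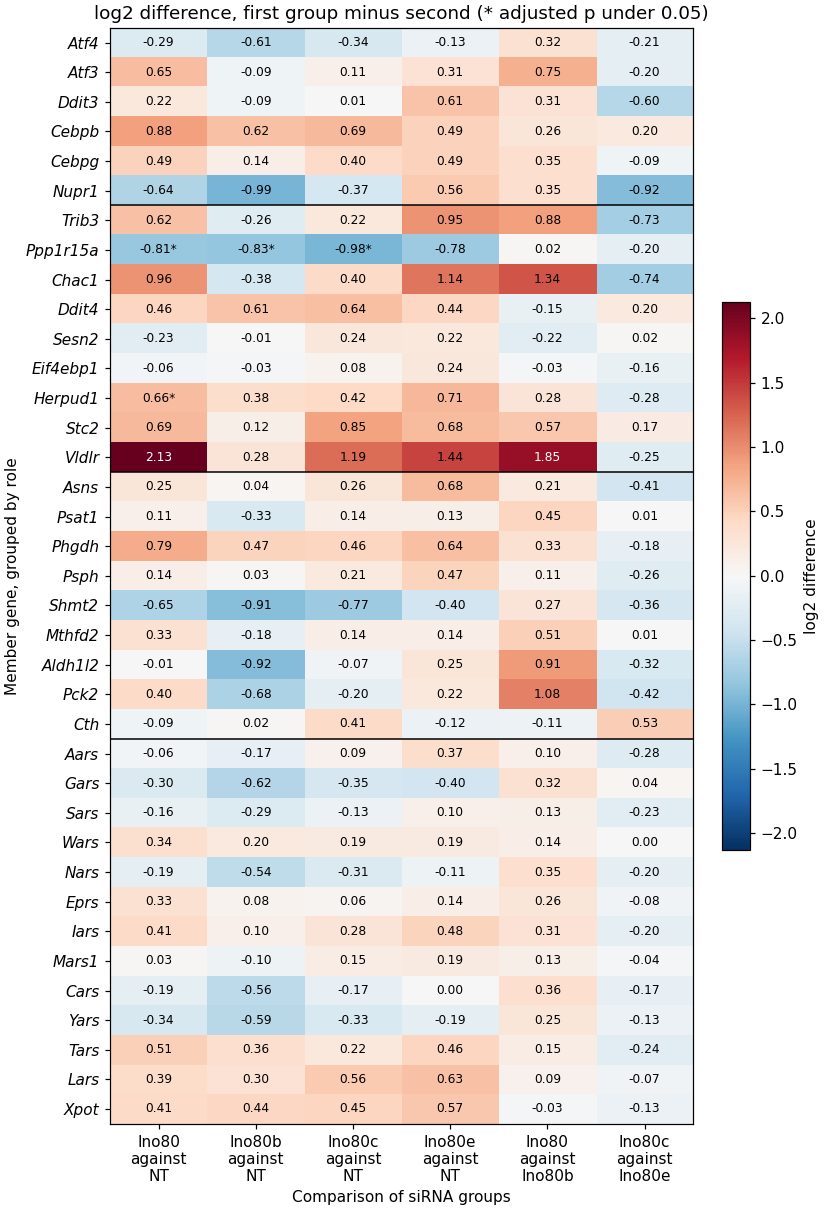
Differences of log2 level (colour and number) of the 37 genes (rows, grouped by role from transcription factors at the top to tRNA charging and export at the bottom) in 6 comparisons (columns). Asterisks mark a limma adjusted p under 0.05, which only Ppp1r15a and Herpud1 carry, and the deepest colour is that of Vldlr in Ino80 against NT at 2.13.

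Ppp1r15a encodes the stress-induced subunit that directs a phosphatase to eIF2 alpha and so ends the response. Its probe lies at chr7:41699940-41699999 (build mm7). On the NT arrays its level was 1.27 and 1.57. On the knockdown arrays it was 0.69 and 0.54 for Ino80, 0.65 and 0.54 for Ino80b, 0.34 and 0.54 for Ino80c, and 0.64 and 0.65 for Ino80e. Both NT arrays lay above all 8 knockdown arrays, a separation that 15.9% to 21.1% of all genes had in a single comparison. The knockdown groups lay close together. The differences from NT were -0.81 ± 0.15 for Ino80 (limma adjusted p = 0.0193), -0.83 ± 0.15 for Ino80b (0.0314), -0.98 ± 0.15 for Ino80c (0.0252) and -0.78 ± 0.15 for Ino80e (0.076). The lowering amounted to 1.75-fold, 1.77-fold and 1.97-fold for Ino80, Ino80b and Ino80c. Within a slide the differences were 0.02 for Ino80 against Ino80b, with a 95% interval of -0.34 to 0.37, and -0.20 for Ino80c against Ino80e, with an interval of -0.56 to 0.15. Ppp1r15a was also the only member called in the moderated F test across the 5 groups (limma adjusted p = 0.0442), 1 of 37 members where 5.31% of all genes were called; with an array left out, that call was kept only without NT replicate 1. Without NT replicate 2 the adjusted p against NT was 0.0728 for Ino80, 0.113 for Ino80b and 0.0937 for Ino80c, and without Ino80 replicate 2 it was 0.094 for Ino80. For Ino80b and Ino80c the call was also lost without any array of Ino80b, Ino80c or Ino80e, with adjusted p of 0.0585 to 0.203 and of 0.0503 to 0.134. The difference stayed below 0 in all fits without an array.

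Herpud1 encodes an endoplasmic reticulum membrane protein that takes part in the degradation of misfolded proteins. Its levels were 0.82 and 0.70 on the NT arrays, 1.31 and 1.53 for Ino80, 1.03 and 1.26 for Ino80b, 1.11 and 1.26 for Ino80c, and 1.35 and 1.59 for Ino80e. All 8 knockdown arrays lay above both NT arrays, as did those of a single knockdown for 35.4% to 44.7% of all genes. The difference from NT was 0.66 ± 0.16 for Ino80 (limma adjusted p = 0.0384), a 1.58-fold rise. For Ino80b, Ino80c and Ino80e it was 0.38, 0.42 and 0.71, with adjusted p of 0.159, 0.127 and 0.0821. The Ino80 call was lost in each of the 10 fits without an array, where the adjusted p was 0.0556 to 0.163 and the difference 0.55 to 0.77.

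Chac1, an enzyme that breaks down glutathione, had levels of 0.73 and 1.34 on NT arrays, 2.07 and 1.93 for Ino80, 0.24 and 1.07 for Ino80b, 1.50 and 1.37 for Ino80c, and 2.10 and 2.25 for Ino80e. The Ino80 and Ino80e arrays were the highest, and those of Ino80b overlapped NT. The difference from NT was 0.96 ± 0.30 for Ino80 (limma adjusted p = 0.0766) and 1.14 for Ino80e (0.0928), neither past the threshold. Trib3, a pseudokinase that restrains ATF4 activity, followed the same order of groups, with 1.66 and 1.95 in NT, 2.24 and 2.62 in Ino80, 1.31 and 1.78 in Ino80b, 1.98 and 2.07 in Ino80c, and 2.53 and 2.97 in Ino80e. Its difference from NT was 0.62 for Ino80 (limma adjusted p = 0.127) and 0.95 for Ino80e (0.0899), again without overlap of the groups and without a call. A second Trib3 probe differed from NT by -0.01 in Ino80, -0.89 in Ino80b, -0.36 in Ino80c and 0.14 in Ino80e.

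Vldlr, a receptor for lipoproteins, had levels of -3.88 and -2.44 in NT, -1.68 and -0.39 in Ino80, -3.56 and -2.20 in Ino80b, -2.50 and -1.44 in Ino80c, and -2.18 and -1.25 in Ino80e. Its arrays within a group lay 0.93 to 1.44 apart, and neither the Ino80 group nor the Ino80e group overlapped NT. The difference of 2.13 ± 0.73 for Ino80 against NT had a 95% interval of 0.41 to 3.84 and a limma adjusted p of 0.0985. Sesn2, an inhibitor of mTORC1 signalling that senses leucine, had 5.18 and 4.86 in NT, 4.56 and 5.02 in Ino80, 4.95 and 5.07 in Ino80b, 5.27 and 5.24 in Ino80c, and 5.14 and 5.34 in Ino80e. Its differences from NT ran from -0.23 to 0.24, and the groups overlapped except for Ino80c. This holds for the brightest probe. A second Sesn2 probe, also well above background on all 10 arrays, lay below NT in all 4 knockdowns (-0.67 to -0.41). Ddit4, a further inhibitor of mTORC1, was higher than NT without overlap in all 4 knockdowns, by 0.44 to 0.64, with limma adjusted p of 0.0758 to 0.17. Stc2, a secreted glycoprotein, differed from NT by 0.12 to 0.85, and Eif4ebp1, the repressor of cap-dependent translation, by -0.06 to 0.24, none of them called.

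**Figure D2:**
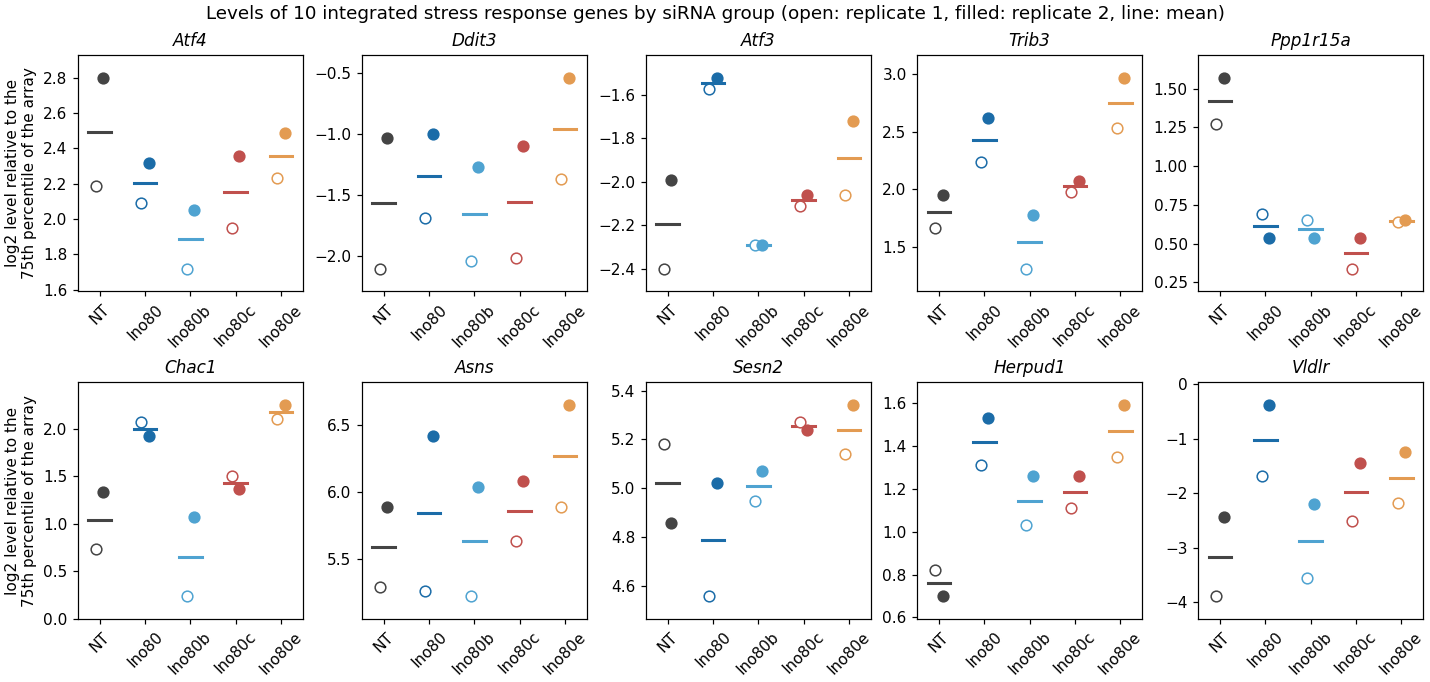
Log2 level relative to the 75th percentile of the array (vertical axis, with its own scale in each panel) of 10 genes by siRNA group (horizontal axis). Open circles are replicate 1, filled circles replicate 2 and lines the group mean. Ppp1r15a is lower on all knockdown arrays than on both NT arrays, Herpud1 is higher on all of them, and in Ddit3, Asns and Vldlr the filled circle lies above the open circle in every group.

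Of the 6 transcription factors none was called against NT in the limma fit. Atf4, the central activator, had levels of 2.19 and 2.80 in NT, 2.09 and 2.32 in Ino80, 1.72 and 2.05 in Ino80b, 1.95 and 2.36 in Ino80c, and 2.23 and 2.49 in Ino80e. The difference from NT was lowest in Ino80b, at -0.61 ± 0.25 (limma adjusted p = 0.162), where both arrays lay below NT. For the other knockdowns it was -0.34 to -0.13 with overlap. Ddit3, which encodes the proapoptotic factor CHOP, had levels of -2.10 and -1.03 in NT, -1.69 and -1.0 in Ino80, -2.04 and -1.27 in Ino80b, -2.01 and -1.10 in Ino80c, and -1.37 and -0.54 in Ino80e. Every knockdown overlapped NT for Ddit3, and replicate 2 was the higher array in each group. Atf3, a stress-induced repressor, had levels of -2.40 and -1.99 in NT, -1.57 and -1.52 in Ino80, -2.29 on both arrays of Ino80b, -2.11 and -2.06 in Ino80c, and -2.06 and -1.72 in Ino80e. It stood highest on the Ino80 arrays, 0.65 ± 0.18 above NT with a limma adjusted p of 0.0547, just short of the threshold.

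Nupr1, a small chromatin protein induced by stress, had levels of -0.24 and 1.27 in NT, -0.55 and 0.30 in Ino80, -1.14 and 0.19 in Ino80b, -0.28 and 0.57 in Ino80c, and 0.56 and 1.58 in Ino80e. The distance between the NT arrays exceeded each of its differences from NT, which ran from -0.99 to 0.56. Cebpb, a partner of ATF4, was higher than NT in all 4 knockdowns without overlap, by 0.49 to 0.88 (limma adjusted p of 0.155 to 0.414). Its second probe, also well above background on all 10 arrays, differed by 0.24, -0.20, -0.14 and -0.29 for Ino80, Ino80b, Ino80c and Ino80e. The related Cebpg differed by 0.14 to 0.49 (adjusted p of 0.0799 to 0.592).

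Among the 9 enzymes no member was called in any comparison of the limma fit. Asns, which makes asparagine, had levels of 5.29 and 5.89 in NT, 5.26 and 6.42 in Ino80, 5.22 and 6.04 in Ino80b, 5.63 and 6.08 in Ino80c, and 5.89 and 6.65 in Ino80e. All 4 knockdowns overlapped NT, and the largest difference was 0.68 ± 0.48 in Ino80e (limma adjusted p = 0.378). Of the serine pathway, Phgdh, its first enzyme, was above NT without overlap in all 4 knockdowns by 0.46 to 0.79 (adjusted p of 0.116 to 0.328). Psat1, the next enzyme, had 3.93 and 4.92 in NT, 4.27 and 4.81 in Ino80, 3.78 and 4.41 in Ino80b, 4.20 and 4.94 in Ino80c, and 4.29 and 4.81 in Ino80e, so that every knockdown overlapped NT. Psph, the last enzyme, differed from NT by 0.03 to 0.47.

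The mitochondrial folate enzymes took different directions. Shmt2, which turns serine into glycine, was below NT in all 4 knockdowns, by -0.91 to -0.40, with adjusted p of 0.0855 to 0.363 and an overlap with NT in Ino80e. Mthfd2 differed by -0.18 to 0.33. Aldh1l2, which oxidises formyl-tetrahydrofolate, had -4.67 and -3.09 in NT, -4.58 and -3.21 in Ino80, -5.74 and -3.86 in Ino80b, -4.73 and -3.16 in Ino80c, and -4.23 and -3.03 in Ino80e. Its signal was well above background on 9 of the 10 arrays, and the arrays of each group lay 1.20 to 1.88 apart. The difference from NT was -0.01 for Ino80, -0.92 for Ino80b, -0.07 for Ino80c and 0.25 for Ino80e. A second Aldh1l2 probe, also well above background on 9 arrays, gave 1.21, -0.31, 0.31 and 0.32 in that order. Pck2, the mitochondrial phosphoenolpyruvate carboxykinase, differed from NT by -0.68 to 0.40 with overlap throughout. Cth, which makes cysteine from cystathionine, was 0.41 above NT in Ino80c without overlap (limma adjusted p = 0.124) and within 0.12 of NT elsewhere.

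The 13 genes of tRNA charging and export had no call either. Their median differences from NT were 0.03 for Ino80, -0.10 for Ino80b, 0.09 for Ino80c and 0.19 for Ino80e, each at or below that of all genes. Sars, the seryl-tRNA synthetase, had 4.73 and 5.61 in NT, 4.63 and 5.39 in Ino80, 4.55 and 5.20 in Ino80b, 4.84 and 5.25 in Ino80c, and 4.98 and 5.56 in Ino80e, and its group means differed least relative to the replicates. Lars and Tars, for leucine and threonine, were above NT without overlap in all 4 knockdowns, by 0.30 to 0.63 and by 0.22 to 0.51. This holds for the brightest probe only, since a second Tars probe lay below NT in all 4 (-0.43 to -0.17) and a further Lars probe differed by -0.40 in Ino80e. Gars, for glycine, was below NT in all 4 by -0.62 to -0.30, and without overlap in Ino80b. Xpot, the nuclear exporter of tRNA, differed by 0.41 to 0.57 on its brightest probe and by -0.41 to -0.04 on its second probe.

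Over the whole set, 15 members lay above NT without overlap and 2 below it in the Ino80 group, where 35.4% and 18.7% of all genes did. For Ino80b there were 8 above and 7 below (37.4% and 21.1% of all genes), for Ino80c 14 and 2 (44.7% and 15.9%), and for Ino80e 15 and 1 (40.5% and 17.3%). The share of members above NT was larger than that of all genes for Ino80 and smaller for Ino80b and Ino80c. Members named above as apart from NT in every knockdown are to be read beside these shares. The share of all genes apart from NT in every knockdown was not counted. Of the 18 members with several kept probes, 9, 12, 12 and 11 had probes of opposite sign in the comparison with NT for Ino80, Ino80b, Ino80c and Ino80e, so for these genes the sign depends on the choice of probe.

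Within slides the set leaned one way in each comparison. In Ino80 against Ino80b, 32 of 37 members were higher in Ino80, with a median difference of 0.28 against 0.01 for all genes. The groups did not overlap for 13 members that were higher and 1 that was lower, where 20.8% and 19.7% of all genes did so. Relative to all genes the median of 0.27 was 0.06 without Ino80 replicate 2 and 0.09 without Ino80b replicate 1, fits that compare unlike replicate numbers. Between arrays of the same number, the score defined above was -0.18 in Ino80 and -0.36 in Ino80b on replicate 1. On replicate 2 it was 0.33 and -0.01. The widest differences were those of Vldlr at 1.85 ± 0.73, Chac1 at 1.34 ± 0.30, Pck2 at 1.08 ± 0.67, Aldh1l2 at 0.91 ± 0.91 and Trib3 at 0.88 ± 0.24. No member was called in the limma fit (0.0678% of all genes were). The smallest adjusted p was 0.266, for Chac1, and 5 of 37 members had an unadjusted p under 0.05, 13.5% against 8.96% of all genes. In Ino80c against Ino80e, 29 of 37 members were lower in Ino80c, with a median of -0.20 against 0.02. Relative to all genes the median of -0.22 was -0.06 without Ino80c replicate 1 and -0.02 without Ino80e replicate 2, again between unlike replicate numbers. The score was -0.21 in Ino80c and -0.03 in Ino80e on replicate 1, and 0.09 and 0.27 on replicate 2. The groups did not overlap for 2 members that were higher and 7 that were lower, where 26.5% and 19.6% of all genes did so. Here too no member was called in the limma fit (0.0339% of all genes were), the smallest adjusted p was 0.253, for Cth, and 3 of 37 members had an unadjusted p under 0.05, 8.11% against 10.7% of all genes.

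Replicate arrays differed in these genes about as much as the groups did. The SD of the 5 group means had a median of 0.23 over the members, and the pooled SD within groups a median of 0.28, whereas over all genes these medians were 0.26 and 0.21. The group means spread more than the replicates for 17 of 37 members (45.9%), against 59.7% of all genes. The ratio of both SDs was largest for Ppp1r15a at 3.0, Herpud1 at 2.02 and Chac1 at 1.89. It was smallest for Sars at 0.32, Psat1 at 0.40 and Aldh1l2 at 0.41. Within groups the SD was widest for Aldh1l2 at 1.09, Vldlr at 0.87 and Nupr1 at 0.81. By role, the median ratio was 1.42 for the feedback genes and effectors, 0.80 for the transcription factors, 0.52 for the enzymes and 0.86 for tRNA charging and export. A ratio has a median of 0.69 under independent normal errors of equal size without any group difference. Errors are not independent where arrays of the same number share a shift, as described next. Such a shift widens the SD within groups but not that of the group means, and so lowers the ratio. With the replicate number also in the fit, more members passed the F test, a larger share than the 18.3% of all genes.

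**Figure D3:**
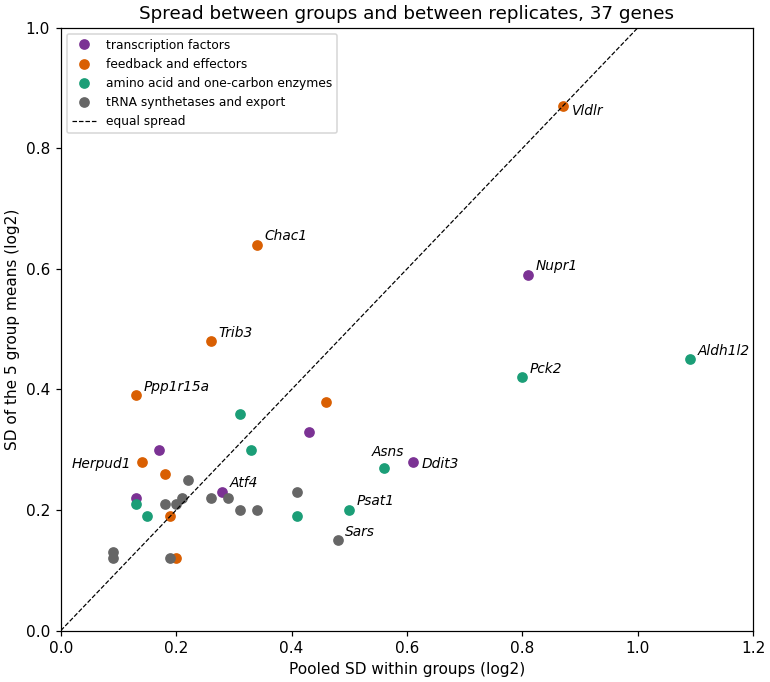
SD of the 5 group means (vertical axis, log2) against the pooled SD within groups (horizontal axis, log2) of the 37 genes, coloured by role; the dashed line marks equal spread. Ppp1r15a, Herpud1, Chac1 and Trib3 lie above the line, and Aldh1l2, Pck2, Psat1 and Sars far below it.

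The differences between replicates ran in a common direction. The array labelled replicate 2 was above replicate 1 for 32 of 37 members in NT, 33 in Ino80, 33 in Ino80b, 32 in Ino80c and 34 in Ino80e. The median excess of replicate 2 was 0.31 to 0.45 log2 over the members, and for all genes the median lay between -0.10 and 0.05. For 26 of 37 members (70.3%) replicate 2 was higher in all 5 groups, against 13.4% of all genes, and no member was higher on replicate 1 in all of them. Averaged over the groups, the excess was 1.52 for Aldh1l2, 1.21 for Vldlr, 1.11 for Nupr1, 1.11 for Pck2, 0.85 for Ddit3 and 0.76 for Asns. By role, it held in all 5 groups for 9 of 9 enzymes, 4 of 6 transcription factors (Atf4, Ddit3, Cebpb and Nupr1), 4 of 9 feedback genes and effectors (Trib3, Eif4ebp1, Stc2 and Vldlr) and 9 of 13 genes of tRNA charging and export. Ppp1r15a, Herpud1, Chac1 and Sesn2 were not among them.

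The labels do not say what arrays of the same number share. The 75th percentile of the signal was lower on replicate 2 in 3 groups and higher in 2, and the share of probes well above background was lower on replicate 2 in 4 groups and higher in Ino80c. The part of either in the pattern was not tested. By the barcodes, replicate 1 lay at the array position just before replicate 2 of its group, so number and position cannot be told apart. With each group left out in turn, 26 to 28 of 37 members were higher on replicate 2 in the 4 that remained, against 14.0% to 19.4% of all genes. Under other background corrections, normalizations, filters and probe choices the count was 24 to 26, of 36 members under the strictest filter and of 37 otherwise.

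**Figure D4:**
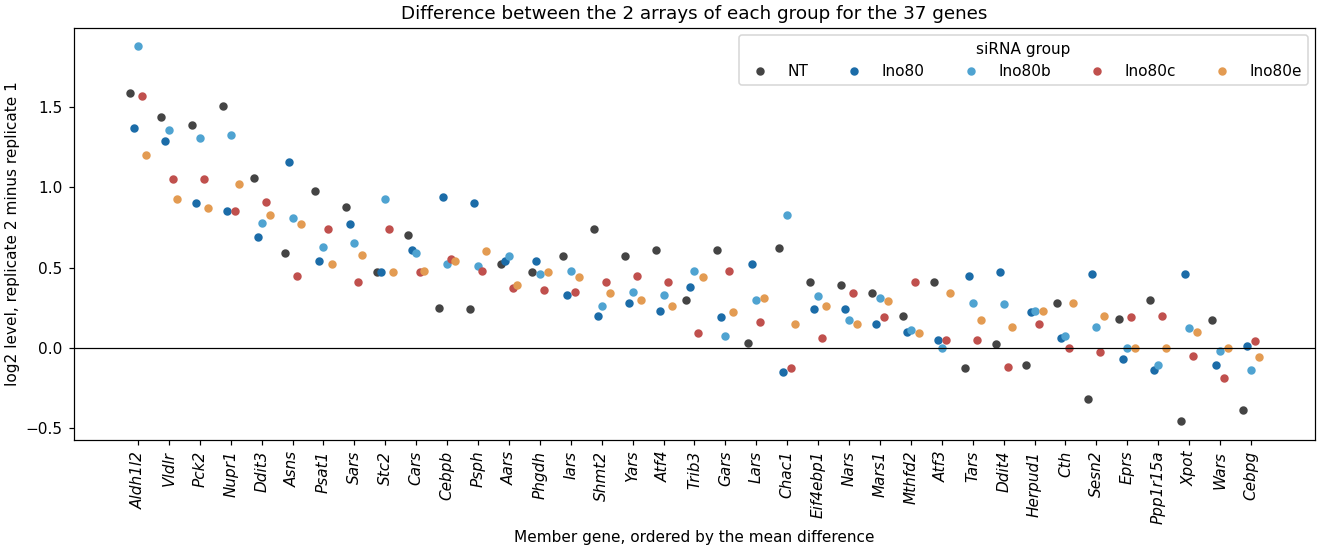
Difference of log2 level between replicate 2 and replicate 1 (vertical axis) for each of the 37 genes (horizontal axis, ordered by the mean), with 1 point per siRNA group. From Aldh1l2 on the left, at 1.20 to 1.88, to Atf4 and Trib3 all points lie above 0, and those of Wars and Cebpg on the right fall on both sides of it.

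Other genes of the pathway were taken from lists drawn up from pathway knowledge. Of 25 further ATF4 targets and amino acid transporters, 15 (60.0%) were higher on replicate 2 in all 5 groups, and 3 on replicate 1. The same held for 3 of 16 genes of the eIF2 alpha kinases and their control, for none of 19 genes of the ATF6 and XBP1 arm of the unfolded protein response, for 1 of the 8 cytosolic tRNA synthetases outside the set and for 4 of 16 mitochondrial ones. Of the 19 genes of the ATF6 and XBP1 arm, 6 were higher on replicate 1 in all 5 groups, as were 12.3% of all genes. Among these 5 lists the shared direction was most frequent on that of the ATF4 targets.

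Against NT, Xbp1, which encodes the transcription factor of the IRE1 arm, fell by 0.89 in Ino80 (limma adjusted p = 0.0193) and by 0.77 in Ino80c (0.0436). Edem1, of the same list, rose by 0.56 in Ino80 (0.039), so that 2 of 19 genes were called there and 1 of 19 in Ino80c. Of the kinases and their control, Eif2ak1, the haem-sensing kinase, fell by 0.77 in Ino80 (limma adjusted p = 0.0452). Impact, an inhibitor of the amino acid-sensing kinase GCN2, rose by 0.55 in Ino80 (0.0497) and by 0.65 in Ino80b (0.0458). That is 2 of 16 genes in Ino80 and 1 of 16 in Ino80b. Of the 25 ATF4 targets and transporters, 2 fell in Ino80 in the limma fit, Gdf15, a secreted stress cytokine, by 1.42 (adjusted p = 0.046) and Klhl24 by 0.61 (0.0428). Among the mitochondrial synthetases 2 of 16 were called in Ino80, of which Fars2 fell by 0.86 (limma adjusted p = 0.0282). In Ino80 these are 10.5%, 12.5%, 8.0% and 12.5% of the lists, where 12.4% of all genes were called. The single calls in Ino80b and Ino80c are 6.25% and 5.26% of their lists, where 6.48% and 6.37% of all genes were called. The shares were thus close to or below those of all genes. With an array left out, the 10 calls against NT on these lists were lost in 72 of 100 fits and no sign turned. None of the listed genes was called in the comparisons within a slide.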

How the data were processed

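Total RNA of 10 samples was hybridised to Agilent 4x44K arrays. Per the file headers, the deposited scanner files hold the intensity of 45018 spots in 1 channel, green, quantified with Feature Extraction 9.5.3.1; the processed signal is background-subtracted and not scaled between arrays. The labels name the dye Cy5. The authors also deposited a table of log2 values, each column equal to the log2 mean signal plus a constant per array (column medians 6.76 to 6.87); the sources used here do not say how those constants were set.

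Control spots and outlier-flagged spots were dropped, spots of a probe averaged, and log2 processed signals centred on the 75th percentile of the array. A probe was kept if at least 1 group had it well above background on both its arrays (29587 of 41143). Names came from accessions in the RefSeq gene table for 22944 probes, otherwise from the array design. The brightest kept probe stood for a gene. Probe coordinates are those of the files (mm7), promoters those of RefSeq (GRCm38.p6).

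All 10 arrays were fitted with limma 3.58.1 in R 4.3.3, with files read through data.table (version 1.17.8) and group as the only term (5 residual and 2.23 prior degrees of freedom). Two-sided p-values received a Benjamini-Hochberg adjustment across all 20662 genes, and 0.05 was the threshold. The fit was tested on simulated data. The number of arrays limits the precision, and no spot was saturated. P-values measure the spread between the replicate samples only.

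Named with values on every array were 8 core regulators and effectors, called members, the 3 largest and 3 smallest ratios of group to replicate SD, and the 3 largest SDs within groups; listed genes were named where called, except that 1 call is not reported here. Other members are given by ranges. The members and lists were chosen with earlier results of these data known. The shorter motif and the alternatives for the counts by replicate number and by SD ratio were added after seeing the data.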

Additional observations from a re-analysis of the deposited data

How the results depend on the processing

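Against the fit described, in which 2, 1, 1 and 0 members were called against NT for Ino80, Ino80b, Ino80c and Ino80e and 1 member in the F test, the counts in that order were 7, 3, 4, 6 and 4 with normexp, 6, 3, 2, 1 and 5 with the values the authors deposited, and 6, 3, 2, 4 and 4 with a trended and robust prior. Without a filter on dim probes they were 1, 0, 0, 0 and 0, with probes well above background on all arrays 4, 1, 1, 1 and 3, and with array weights 0, 1, 1, 0 and 0. They were 0 in every comparison fitted on its 4 arrays alone, which leaves 2 residual degrees of freedom. Quantile normalization, array medians and the mean of all kept probes left these counts and the called genes as they were. With the replicate block, which takes the replicate number out of the error, 11, 12, 8, 9 and 13 members were called and 1 (Vldlr) in Ino80 against Ino80b. The shares of all genes were 23.8%, 17.7%, 18.1%, 9.46% and 18.3%, each smaller than that of the members, and 0.411% in Ino80 against Ino80b. The deviations of same-numbered arrays correlated by 0.00 to 0.32 between groups, over 0.1 in 8 of 10 pairs of groups. The labels do not say what a number shares, and the main fit did not treat the numbers as pairs. A shift shared by arrays of a number therefore stays in the error of the main fit. In the fit with the replicate block the replicate term was called for 16 of 37 members, all higher on replicate 2 (43.2% against 6.33% of all genes, called in either direction). With 1 array left out the counts ranged over 0 to 3 for Ino80, 0 to 2 for Ino80b, 0 to 3 for Ino80c, 0 to 1 for Ino80e and 0 to 1 in the F test. In these fits the lone array of a group is assumed to vary like the other groups. The median of the members relative to all genes then ran from -0.27 to 0.38 for Ino80, -0.48 to 0.09 for Ino80b, -0.35 to 0.18 for Ino80c and -0.16 to 0.42 for Ino80e. Leaving out an array of either group also unbalances the replicate numbers, so the shift between the numbers enters these values. Its share in them was not tested. Of all genes, 12.4%, 6.48%, 6.37% and 0.00484% were called against NT for Ino80, Ino80b, Ino80c and Ino80e, against 18.6%, 15.9%, 20.5% and 24.9% with normexp, 18.1%, 11.3%, 10.7% and 5.36% with the authors' values, 18.0%, 14.2%, 12.7% and 8.78% with the trended prior, 19.5%, 13.3%, 13.1% and 2.74% with the strictest filter, 4.55%, 0.907%, 0.521% and 0% without a filter, and 3.37%, 2.65%, 1.21% and 0% with array weights. With array medians the share for Ino80c was 3.73%.

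The 4 called differences of Ppp1r15a and Herpud1 kept their sign in all 84 refits and lost the call in 26 of 40 with an array left out and 9 of 44 others. The 10 calls among the pathway lists kept their sign, and the call was lost in 72 of 100 and 37 of 110. Of the 80 differences of named members that were not called, the sign turned in 67 of 800 refits with an array left out and 27 of 874 others, and 1 and 34 became called. Turned signs against NT were, with normexp, Ddit3 at -0.03 (Ino80c). With quantile normalization they were Psat1 at -0.00 (Ino80), Asns at -0.17 (Ino80b), Ddit3 at -0.03 and Psat1 at -0.05 (Ino80c), and Sesn2 at -0.05, Sars at -0.15 and Psat1 at -0.14 (Ino80e). With array medians they were Asns at -0.03 (Ino80b), Ddit3 at -0.12 and Atf3 at -0.02 (Ino80c), Sars at -0.00 (Ino80e), and, in Ino80c against Ino80e, Sesn2 at -0.00 and Psat1 at -0.01. In the authors' deposited table they were Asns at -0.13 (Ino80b), Ddit3 at -0.18, Atf3 at -0.07, Trib3 at -0.05 and Psat1 at -0.07 (Ino80c), and Sesn2 at -0.01, Sars at -0.13 and Psat1 at -0.08 (Ino80e). With the mean of probes they were Aldh1l2 at 0.60 (Ino80), Trib3 at -0.07, Sesn2 at -0.09 and Aldh1l2 at 0.12 (Ino80c), and Sesn2 at -0.12 (Ino80e).

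With an array left out, signs turned over these ranges. For Ino80 against NT they were Atf4 -0.59 to 0.02, Ddit3 -0.31 to 0.75, Asns -0.33 to 0.83, Sesn2 -0.46 to 0.00, Sars -0.60 to 0.28, Psat1 -0.38 to 0.61, Aldh1l2 -0.80 to 0.78 and Nupr1 -1.39 to 0.12. For Ino80b they were Ddit3 -0.62 to 0.44, Atf3 -0.30 to 0.11, Chac1 -0.79 to 0.04, Asns -0.37 to 0.45, Sesn2 -0.17 to 0.15, Sars -0.73 to 0.15, Psat1 -0.83 to 0.16, Aldh1l2 -1.86 to 0.02 and Vldlr -0.44 to 1.00. For Ino80c they were Ddit3 -0.52 to 0.54, Atf3 -0.10 to 0.32, Asns -0.03 to 0.56, Sars -0.57 to 0.31, Psat1 -0.35 to 0.63, Aldh1l2 -0.86 to 0.73 and Nupr1 -1.13 to 0.39. For Ino80e they were Atf4 -0.44 to 0.17, Sars -0.34 to 0.54, Psat1 -0.36 to 0.62, Aldh1l2 -0.54 to 1.05 and Nupr1 -0.20 to 1.31. In Ino80 against Ino80b they were Ddit3 -0.08 to 0.70, Ppp1r15a -0.05 to 0.09, Asns -0.37 to 0.79, Sesn2 -0.45 to 0.01, Sars -0.25 to 0.52, Aldh1l2 -0.03 to 1.85 and Nupr1 -0.32 to 1.02. In Ino80c against Ino80e they were Sesn2 -0.08 to 0.12, Sars -0.52 to 0.06, Psat1 -0.35 to 0.38, Aldh1l2 -1.10 to 0.46 and Vldlr -0.78 to 0.28.

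The count of members with group means wider apart than replicates was 13 to 17 of 37 over the choices of values and probes, below the share of all genes in each. All of these choices leave the shift between replicate numbers in the spread of the replicates.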
